A study of Homo sapiens with 12 samples.

Results

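Oxidative phosphorylation (OXPHOS) is carried out in the inner mitochondrial membrane by the respiratory complexes I to IV, which pass electrons from NADH and succinate to oxygen and pump protons, and by complex V, the ATP synthase, which uses the proton gradient to make ATP. Most subunits of these complexes are encoded in the nucleus, translated in the cytosol and imported, and they must be made in balance with the subunits encoded by mitochondrial DNA. The transcription factors NRF1, GABP (an ETS family factor) and YY1 are known to bind the promoters of many of these genes.

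The nuclear-encoded OXPHOS genes were chosen by symbol, as the rows of the count table named for subunits of NADH dehydrogenase (NDUFA, NDUFB, NDUFC, NDUFS and NDUFV), succinate dehydrogenase (SDHA to SDHD), the cytochrome bc1 complex (UQCR genes and CYC1), cytochrome c oxidase (COX4 to COX8) and ATP synthase (ATP5). Of 89 matching symbols, 2 pseudogenes (ATP5EP2 and UQCRBP1) and the readthrough symbol ATP5J2-PTCD1 were dropped, which left 86 members among 26485 symbols. Complex I had 36 members, complex II 4, complex III 10, complex IV 17 and complex V 16. The other 3 members, COX7A2L, ATP5S and ATP5SL, carry family names but are known as assembly or associated proteins. The table uses older names for complex V: ATP5G1, ATP5G2 and ATP5G3, for example, are now ATP5MC1, ATP5MC2 and ATP5MC3. The 13 subunits encoded by mitochondrial DNA were not analysed here.

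RNA was measured in wild-type HEK293 cells, a human embryonic kidney line, after transient transfection of plasmids with a CMV promoter. The 4 constructs were PEG10 gag-pol, PEG10 gag, PEG10 NC (the nucleocapsid fragment of gag) and, as control, the actin-binding marker LifeAct-Dendra2, and each had 3 replicates. PEG10 is a gene derived from a retrotransposon whose gag-pol protein is made by ribosomal frameshifting and can be cleaved to release NC. The study asked whether these forms of PEG10 change gene expression. The 12 poly(A) RNA-seq libraries held from 30625725 to 45316749 counts each. PEG10 itself took from 0.0230% to 0.0346% of counts in control, from 2.80% to 7.35% in gag-pol, from 3.78% to 6.10% in gag and from 0.238% to 0.389% in NC, where reads of the plasmid and of the endogenous gene are counted together. The HEK293 markers PAX2, VIM, KRT8, KRT18 and NES were present in every library. Untransfected cells were not separated, and in bulk RNA fewer cells with a transcript and less transcript per cell cannot be told apart.

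The promoter windows of the members held motifs of NRF1, ETS factors and YY1 at higher shares than all promoter windows did. The RefSeq windows of GRCh38.p14, which run from 250 bases before to 50 bases after a transcript start, were at hand for 67 of the 86 members. GCATGCGC, a common NRF1 motif, was present on either strand in 13 of them (19.4%), against 3.27% of all 27305 promoter windows and 4.91% of those of tested genes. CCGGAAGT, an ETS motif, was in 9 (13.4%), against 4.44% of all windows and 7.65% of those of tested genes. AAGATGGC, a YY1 motif, was in 11 (16.4%), against 3.03% and 4.75%. These letters lay wholly before the start only in ATP5J, and in the other members they ended within the 50 bases after it. At least 1 of the 3 was found in 27 windows (40.3%), against 9.94% of all windows and 15.9% of those of tested genes. The NRF1 letters overlap their own reverse complement (GCGCATGC) by 6 letters, so that a match on both strands can be a single site.

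Stretches upstream of the RefSeq start are shown for members whose RNA is described below, with the motif in capitals. The first 4 hold the NRF1 letters or their reverse complement and belong to genes called higher in NC than in control. COX8A holds the reverse complement of the ETS letters and SDHB the NRF1 letters. All are written 5′ to 3′ along the gene's own strand, with positions on GRCh38.p14. The ATP5G2 stretch and part of the ATP5I stretch lie inside the GENCODE gene span, which begins farther upstream.
ATP5G2, chr12:53676084-53676163, minus strand: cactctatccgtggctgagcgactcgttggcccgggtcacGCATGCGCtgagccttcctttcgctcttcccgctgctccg
NDUFA6, chr22:42090891-42090978, minus strand: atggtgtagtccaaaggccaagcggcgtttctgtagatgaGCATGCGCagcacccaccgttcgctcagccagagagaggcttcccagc
NDUFS6, chr5:1801321-1801406, plus strand: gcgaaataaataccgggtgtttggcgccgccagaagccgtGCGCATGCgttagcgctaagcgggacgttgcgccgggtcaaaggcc
ATP5I, chr4:674307-674394, minus strand: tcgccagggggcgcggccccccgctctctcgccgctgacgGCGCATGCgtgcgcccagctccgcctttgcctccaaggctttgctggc
COX8A, chr11:63974561-63974619, plus strand: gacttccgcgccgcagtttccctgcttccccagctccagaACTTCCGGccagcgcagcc
SDHB, chr1:17054185-17054272, minus strand: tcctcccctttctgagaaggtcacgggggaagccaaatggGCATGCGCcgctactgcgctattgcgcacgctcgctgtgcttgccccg

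OXPHOS transcripts were abundant in these cells. To compare genes, normalized counts (counts scaled to the mean library total with TMM factors) were divided by the length in kb of the Ensembl canonical transcript of GENCODE release 44. The 83 members that passed edgeR's filter on low counts had a median of 2390 normalized counts per kb in control, against 246 over the tested genes with a known length. Of the 83 members, 74 lay above that median of all tested genes and 53 in the highest 10%. Their transcripts were short, with a median length of 804 bases against 3092, and their median GC content was 47.5% against 49.5%.

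**Figure D1:**
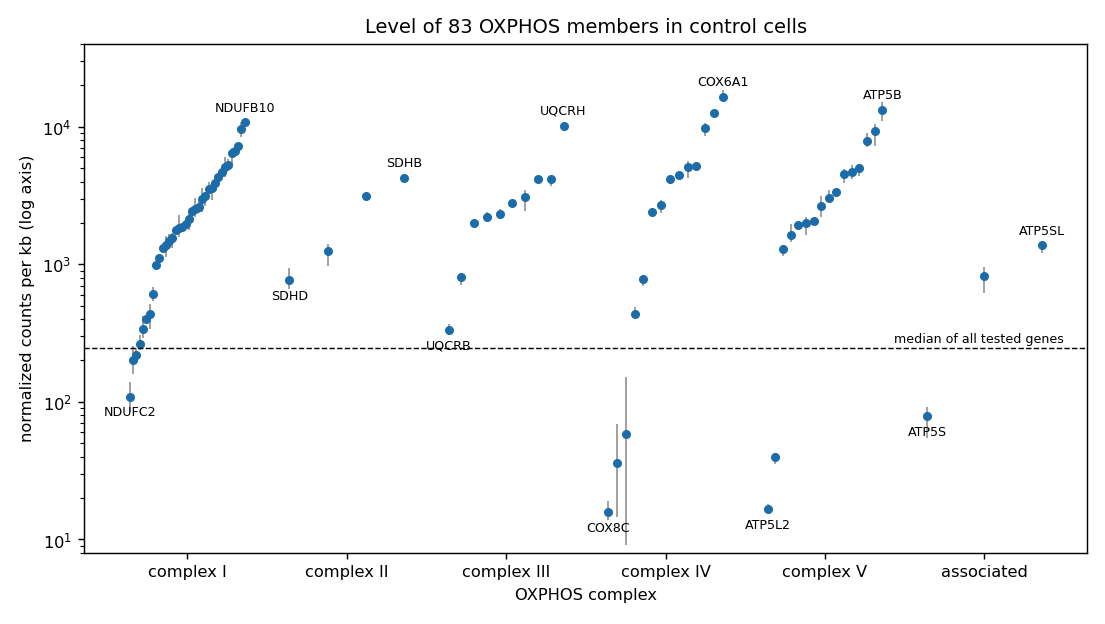
Mean length-scaled level in control of the 83 tested members by complex, in normalized counts per kb on a log axis, with vertical lines from the lowest to the highest of the 3 libraries and the median of all tested genes dashed. Most members lie above the dashed line, and COX8C and ATP5L2 lie near the floor at 15.9 and 16.6.

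Levels differed widely within a complex although the subunits are assembled in fixed numbers. In complex I they ran from 10773 normalized counts per kb for NDUFB10, an accessory subunit of the membrane arm, to 109 for NDUFC2, also in the membrane arm. The libraries of 28 of the 35 pairs of neighbors in that order overlapped, so that most adjacent ranks did not differ beyond their spread. Complex III ran from 10174 for UQCRH, the hinge protein at cytochrome c1, to 335 for UQCRB, and 4 of its 9 neighboring pairs overlapped. The canonical transcript of UQCRB is 8459 bases long. Complex V ran from 13249 for ATP5B, the catalytic beta subunit, to 16.6 for ATP5L2, a retrocopy of ATP5L. ATP5E, the epsilon subunit, stood at 39.8 with a canonical transcript of 3610 bases, and for both UQCRB and ATP5E a shorter transcript would give a higher level. Raw counts were also low, from 108 to 187 per library for ATP5E and from 139 to 293 for NDUFC2. The readthrough symbols SLMO2-ATP5E and NDUFC2-KCTD14 had a count of 0 in every library. How reads shared with these symbols were counted is not known, so the levels of ATP5E and NDUFC2 are uncertain.

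Complex II, which also acts in the tricarboxylic acid cycle and has no subunit encoded in mitochondria, gave a clear order on the length scale. SDHB, the iron-sulfur subunit, had 4230 ± 267 normalized counts per kb in control (SD, n = 3), followed by SDHA, the flavoprotein that oxidizes succinate, with 3166 ± 121. The membrane anchors were lower, at 1254 ± 247 for SDHC and 767 ± 146 for SDHD. None of the 3 neighboring pairs had overlapping libraries. As counts not scaled by length, SDHA had 8527 ± 325 and SDHB 4293 ± 271 in control, so the order of SDHA and SDHB depends on the scaling.

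Several complex IV subunits exist as a common and a tissue-restricted isoform, and the common form dominated throughout. COX4I1 had 12602 ± 168 normalized counts per kb in control, while COX4I2, the form of lung and of low oxygen, had a count of 0 in all 12 libraries. COX7B2 was also at 0 in every library. A count of 0 allows up to 3 counts, or from 0.0662 to 0.0980 CPM (counts scaled by the library total) in these libraries, for counting error only. COX6A1 stood at 16480 ± 1773 per kb, the highest of all members, and its heart and muscle form COX6A2 had no counts in control and at most 16 in any library.

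COX6B1 had 9822 ± 1067 normalized counts per kb against 35.9 ± 29.3 for COX6B2, the testis form. COX7A2 had 4184 ± 309 against 58.9 ± 80.5 for COX7A1, the heart and muscle form. COX8A had 5173 ± 369 against 15.9 ± 2.83 for COX8C. The low forms varied most between libraries: COX7A1 had 48 raw counts in control replicate 3 and from 2 to 27 in the other 11 libraries. No difference between constructs was called for COX6B2, COX7A1 or COX8C.

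The 3 genes ATP5G1, ATP5G2 and ATP5G3 encode the same mature subunit c, which forms the rotating ring of ATP synthase. ATP5G2 supplied most of their RNA, with 9255 ± 1708 normalized counts per kb in control, against 1995 ± 311 for ATP5G1 and 1304 ± 126 for ATP5G3. As counts not scaled by length, ATP5G2 and ATP5G3 had 5849 ± 1079 and 3373 ± 327. The associated proteins were lower on the length scale, at 1374 for ATP5SL, 819 for COX7A2L and 79.3 for ATP5S.

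Summed over all 86 members, OXPHOS transcripts took 0.712% ± 0.0679 of counts in control, 0.685% ± 0.0193 in gag-pol, 0.650% ± 0.0243 in gag and 0.768% ± 0.0776 in NC (SD, n = 3). With PEG10 reads left out of the totals, the shares were 0.712%, 0.718%, 0.686% and 0.770%. Libraries of NC gave the highest and the most scattered shares, at 0.813%, 0.812% and 0.678%, and the ranges of NC and control overlapped.

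In NC against control, a minority of the OXPHOS genes was called, and most of the others had small positive differences that did not pass the test. The median log2 fold change of the 83 tested members was 0.16, against 0.00 for all 17176 genes tested, and 73 of the 83 had a positive value. By edgeR's quasi-likelihood test at a Benjamini-Hochberg adjusted p under 0.05, 10 members rose and 0 fell. Over all genes tested, 6.04% were called higher and 5.15% lower. The 10 were 6 accessory subunits of complex I (NDUFA6, NDUFA7, NDUFA10, NDUFS4, NDUFS6 and NDUFV3), UQCRC2 of complex III, ATP5G2 and ATP5I of complex V, and COX7A2L. No member of complexes II or IV was called, yet their medians of 0.15 and 0.18 were like those of complexes I (0.16), III (0.15) and V (0.14). The 7 core subunits of complex I, among them those that carry the flavin and the iron-sulfur centers, had a median of 0.17 with no call, and all 7 values were positive. Over all genes, 24.8% were higher in NC than in control in every replicate, and 47 of the 83 members (56.6%) were. In replicate 3 the control library was low for most members, as given below.

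**Figure D2:**
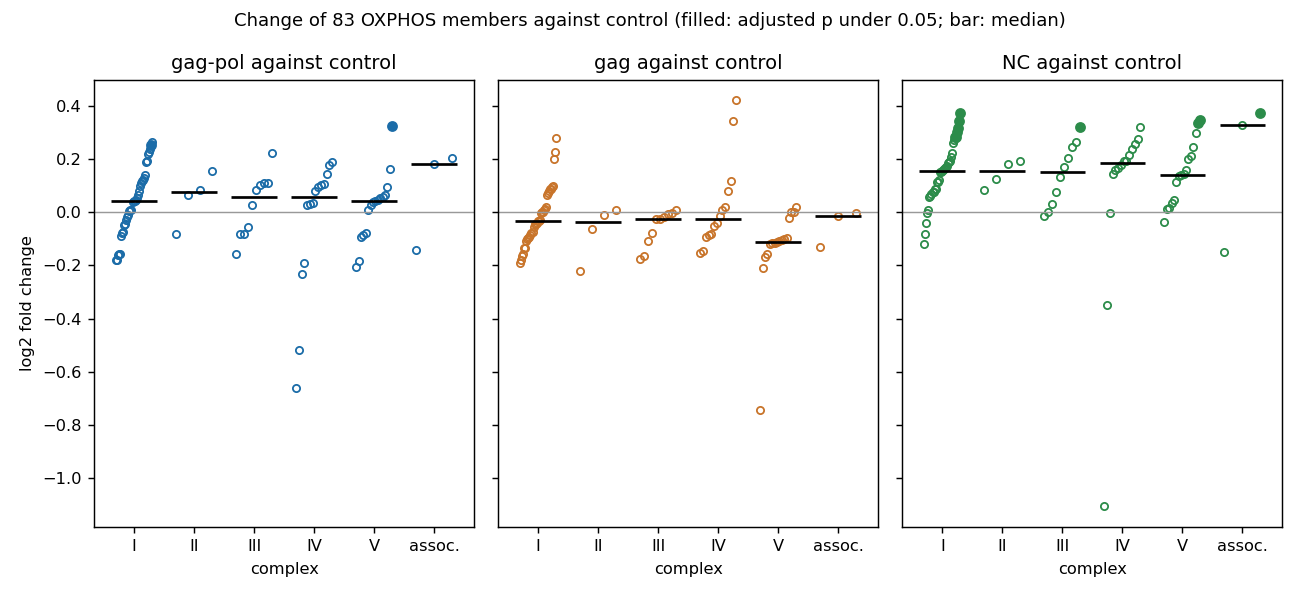
Log2 fold change against control of the 83 tested members by complex, for gag-pol, gag and NC, with filled points for an adjusted p under 0.05 and a bar at the median of each complex. In NC the medians of complexes I to V lie between 0.14 and 0.18, in gag-pol between 0.04 and 0.07 and in gag between -0.11 and -0.03.

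NDUFA7, an accessory subunit of the matrix arm of complex I on chromosome 19 (8308768 to 8321375), was among the 3 largest rises. It had 2073, 1722 and 1402 normalized counts in the control replicates and 2345, 2594 and 1777 in the NC replicates. NC was higher than control within each replicate number, but the libraries overlapped, since NC replicate 3 lay below control replicate 1. The log2 fold change was 0.37 ± 0.10 (SE; 1.29-fold; adjusted p = 0.0161, edgeR). NDUFA7 overlaps RPS28, a ribosomal protein gene on the opposite strand, and reads of both cannot be separated if strand was not used in counting.

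COX7A2L, on chromosome 2 (42333546 to 42425088), is known as a factor that joins complexes III and IV into supercomplexes. Its normalized counts were 1997, 2189 and 1423 in control and 2292, 2915 and 2047 in NC. Again control replicate 3 was the lowest library and NC replicate 2 the highest. The log2 fold change was 0.37 ± 0.10 (adjusted p = 0.0194, edgeR).

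ATP5G2, the leading subunit c gene, lies on chromosome 12 (53632726 to 53677408). It had 6344, 6593 and 4611 normalized counts in control, 6271, 6736 and 6376 in gag-pol, 4706, 6003 and 4809 in gag and 7501, 8856 and 5979 in NC. NC and control overlapped because NC replicate 3 was below control replicates 1 and 2, while all 3 gag-pol libraries lay above all 3 gag libraries. NC exceeded control by 0.35 ± 0.09 on the log2 scale (1.27-fold, adjusted p = 0.0188, edgeR) and gag by 0.52 ± 0.09 (1.43-fold, adjusted p = 0.00114, edgeR), the largest called difference of any member between 2 constructs.

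NDUFA6, a subunit of the matrix arm with an LYR motif on chromosome 22 (42085526 to 42090884), had control libraries close to each other. It had 1055, 1078 and 1028 normalized counts in control and 1253, 1481 and 1275 in NC, without overlap. Non-overlapping, higher NC libraries were seen for 5 of 83 members (NDUFA6, NDUFA10, COX4I1, COX6C and COX7C), or 6.02%, and for 4.56% of all genes. Its log2 fold change was 0.34 ± 0.09 in NC (adjusted p = 0.0177, edgeR). The other constructs had similar levels, at 1273, 1240 and 1278 in gag-pol and 1273, 1310 and 1255 in gag, with log2 fold changes against control of 0.26 ± 0.09 (adjusted p = 0.0585, edgeR) and 0.28 ± 0.09 (adjusted p = 0.139, edgeR). NDUFA6 thus stood apart from most members in that gag was not below control.

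**Figure D3:**
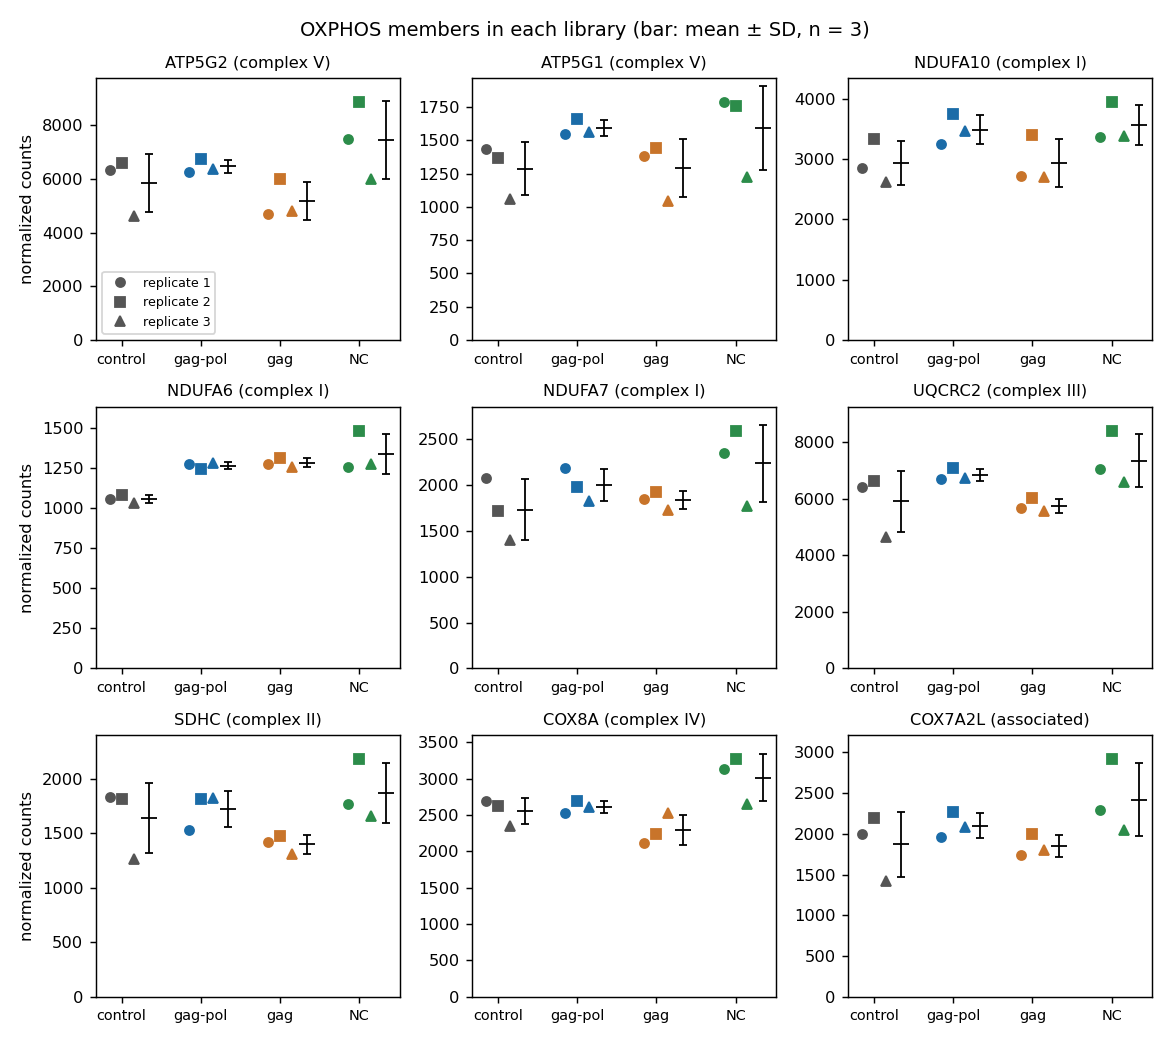
Normalized counts of 9 members in each of the 12 libraries, with a symbol for each replicate number and a bar for the mean ± SD of 3 libraries. For NDUFA6 the 3 control libraries, from 1028 to 1078, lie below the other 9, and for ATP5G2, UQCRC2 and COX7A2L control replicate 3 is the lowest and NC replicate 2 the highest of the 12 libraries.

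The count of calls in NC against control depended on single libraries. It fell from 10 to 0 without control replicate 3, to 3 without NC replicate 2 (of which 1, ATP5SL, was lower) and to 4 without either control replicate 2 or NC replicate 1, while the median of the members stayed between 0.07 and 0.23. The share of all genes called in either direction was 11.2% with all libraries, and it fell in these fits as well. It was, in the same order, 2.10%, 8.49%, 6.71% and 5.498%. In the fit without the replicate number no member was called, and only 2 of 17176 genes were.

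Of 79 cytosolic ribosomal proteins, which are also short and abundant transcripts, 23 rose in NC and 0 fell, with a median of 0.24. After removal of the trend on GC content and transcript length, 7 of 83 members were called, against 10 before, and the median was 0.09. Of all genes, 12.3% were called in either direction after the removal, against 11.2% before. The 6 markers of other cell types summed to between 148 and 534 normalized counts in control and between 51.3 and 179 in NC, PTPRC was at 0 in all control libraries, and COL3A1 was lower in NC. Among the 5 HEK293 markers VIM rose and NES fell in NC, and the sum of the 5 ran from 29585 to 32810 in control and from 35133 to 41080 in NC. The part of these in the OXPHOS values was not tested beyond the removal of the trend.

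In gag-pol, 2 members rose against control and 0 fell, or 2.41% of the 83, while 5.48% of all genes tested were called higher and 5.83% lower. The median of the members was 0.04, and 55 of 83 had a positive value. This median turned to -0.04 without gag-pol replicate 3, was 0.01 without control replicate 3 and was 0.10 without gag-pol replicate 2 or control replicate 1. ATP5G1, a second subunit c gene on chromosome 17 (48892765 to 48895871), had 1439, 1367 and 1060 normalized counts in control and 1548, 1659 and 1566 in gag-pol. The groups did not overlap, and the log2 fold change was 0.32 ± 0.10 (1.25-fold, adjusted p = 0.0367, edgeR). Higher gag-pol libraries without overlap were seen for 7 of 83 members (8.43%) and for 6.74% of all genes. NDUFA10, an accessory subunit of complex I on chromosome 2 (239892450 to 240025743), had 2846, 3335 and 2625 in control and 3255, 3744 and 3467 in gag-pol. It was higher in gag-pol within each replicate number although the groups overlapped, and the log2 fold change was 0.25 ± 0.08 (adjusted p = 0.0309, edgeR). Higher values in all 3 replicates were seen for 13 of 83 members (15.7%) and for 3957 of 17176 genes. No call was left without control replicate 2 or control replicate 3, the single call without gag-pol replicate 3 was ATP5O, which was lower, and 4 were made without control replicate 1 or NC replicate 2. The share of all genes called in either direction was 11.3% with all libraries. In these 5 fits it was, in the same order, 7.86%, 4.22%, 4.97%, 8.23% and 13.9%.

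In gag, no member was called against control by edgeR or DESeq2, while 0.699% of all genes were called higher and 0.384% lower. An unadjusted p under 0.05 in edgeR was seen for 5 of 83 members and for 2347 of 17176 genes. The median was -0.04 and 57 of 83 members had a negative value, among them 21 of 36 in complex I, 9 of 10 in complex III (median -0.03) and 13 of 16 in complex V (median -0.11). Leaving out single libraries gave medians from -0.11 (without gag replicate 3) to -0.02 (without control replicate 1). The 3 members with the smallest unadjusted p were NDUFA6, given above, ATP5O and NDUFA12. ATP5O, the stalk protein that confers oligomycin sensitivity, had 6822, 5558 and 5422 normalized counts in control and 5713, 4595 and 5036 in gag. It was lower in gag within every replicate number, by 0.21 ± 0.09 on the log2 scale (adjusted p = 0.267, edgeR), with overlapping libraries. Lower values in all 3 replicates were seen for 12 of 83 members and for 2929 of 17176 genes. NDUFA12, an accessory subunit of complex I, had 1629, 1429 and 1331 in control and 1776, 1660 and 1673 in gag, without overlap, a log2 fold change of 0.22 ± 0.09 (adjusted p = 0.280, edgeR). Higher gag libraries without overlap were seen for 2 of 83 members (2.41%) and for 4.2% of all genes.

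NC and gag gave the widest contrast. Of the 83 members, 21 (25.3%) were higher in NC than in gag and 0 lower, while 8.76% of all genes tested were called higher and 8.12% lower. The median was 0.20, or 0.12 without NC replicate 2, and 77 values were positive. Called members were 7 of 16 in complex V, 6 of 36 in complex I, 4 of 14 in complex IV, 2 of 10 in complex III, 1 of 4 in complex II, and COX7A2L. Within complex V they included 3 of the 5 subunits of the F1 head that makes ATP (ATP5A1, ATP5B and ATP5C1) and 2 of the 3 subunit c genes, with medians of 0.26 for the head and 0.30 for the ring. Differences between complexes were not tested. Of the 79 cytosolic ribosomal proteins, 42 were higher in NC than in gag and 0 lower, with a median of 0.27.

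SDHC, a membrane anchor of complex II on chromosome 1 (161314381 to 161363206), had 1418, 1478 and 1308 normalized counts in gag and 1774, 2183 and 1662 in NC. All 3 NC libraries were above all 3 gag libraries, and the log2 fold change was 0.41 ± 0.11 (1.33-fold, adjusted p = 0.0121, edgeR). The other complex II subunits were not called in any comparison between constructs: NC minus gag was 0.15 ± 0.08 for SDHA, 0.14 ± 0.08 for SDHB and 0.17 ± 0.12 for SDHD on the log2 scale. SDHA had 8641, 8778 and 8160 normalized counts in control and 8909, 9718 and 8483 in NC.

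COX8A, a small accessory subunit of complex IV on chromosome 11 (63974620 to 63976543), had 2114, 2236 and 2522 normalized counts in gag and 3128, 3268 and 2644 in NC. The groups were separate, with a log2 fold change of 0.39 ± 0.09 (adjusted p = 0.00574, edgeR). Its control libraries, at 2698, 2618 and 2350, overlapped both groups, and COX8A was not called in NC against control (0.24 ± 0.09, adjusted p = 0.0903, edgeR).

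Higher NC libraries without overlap were found against gag for 16 of 83 members (19.3%), while 7.09% of all genes showed this. Leaving out gag replicate 1 reduced the 21 calls to 1, and leaving out gag replicate 2 reduced them to 4. There were 5 when NC replicate 2 was dropped, 7 when NC replicate 1 was, and 32 when NC replicate 3 was. The share of all genes called in either direction was 16.9% with all 12 libraries. It was 5.36% without gag replicate 1 and 9.45% without gag replicate 2. Without NC replicates 2, 1 and 3 it was 12.4%, 7.71% and 12.9%. ATP5G2 was called in all 12 fits with 1 library left out, and COX8A in 11. Without the replicate number 0 members were called, and 1 of 17176 genes was.

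Gag-pol against gag gave 2 calls, ATP5G2 (0.33 ± 0.09, adjusted p = 0.0323, edgeR) and NDUFA10 (0.25 ± 0.08, adjusted p = 0.0457, edgeR), both higher in gag-pol, while 3.03% of all genes tested were called higher and 3.42% lower. The median was 0.09, and it was 0.00 without gag-pol replicate 3, 0.04 without gag replicate 2 and 0.14 without gag replicate 3. All gag-pol libraries lay above all gag libraries for 16 of 83 members (19.3%), while this held for 6.64% of all genes. The 2 calls became 0 without any of the gag libraries or without gag-pol replicate 3, 1 without control replicate 2, NC replicate 1 or gag-pol replicate 1 or 2, and 6 without control replicate 3.

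NC and gag-pol did not differ for any member by edgeR or DESeq2 at the adjusted threshold. An unadjusted p under 0.05 in edgeR was seen for 9 of 83 members and for 1704 of 17176 genes. Over all genes, 0.00582% were called higher in NC and 0.0815% lower. The median was 0.11 and 78 values were positive, but this did not hold within replicates. Leaving out NC replicate 2 gave a median of 0.04, and leaving out gag-pol replicate 2 gave 0.07. Leaving out replicate 3 of either construct gave 0.18. NC was above gag-pol for 72 members in replicate 1 and 81 in replicate 2, and for 9 in replicate 3, where the median was -0.10.

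The members with the smallest unadjusted p were NDUFB6, SDHB and ATP5O. NDUFB6, of the membrane arm of complex I, had 509, 453 and 475 normalized counts in gag-pol and 685, 644 and 504 in NC, a log2 fold change of 0.35 ± 0.12 (adjusted p = 0.316, edgeR). SDHB had 4133, 3771 and 4245 in gag-pol and 4673, 4986 and 4369 in NC, the only member whose NC libraries were all above its gag-pol libraries (2.79% of all genes), with 0.21 ± 0.08 (adjusted p = 0.354, edgeR). ATP5O had 0.22 ± 0.09 (adjusted p = 0.369, edgeR).

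Comparing gag-pol and NC together with gag and control together, 23 of 83 members (27.7%) were higher and 0 lower, while 13.1% of all genes tested were called higher and 11.6% lower. The median was 0.12, or 0.08 without NC replicate 2, with 71 positive values. Complex I gave 7 of the calls, complex II 1, complex III 3, complex IV 4, complex V 7, and COX7A2L was the other. The largest were ATP5G2 (0.34 ± 0.06, adjusted p = 0.000839, edgeR), ATP5G1 (0.31 ± 0.07, adjusted p = 0.00283) and UQCRC2 (0.29 ± 0.06, adjusted p = 0.00178). In the same comparison 53 of the 79 cytosolic ribosomal proteins were higher and 0 lower, with a median of 0.20.

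UQCRC2, a core protein of complex III on chromosome 16 (21953288 to 21983660), had 6420, 6633 and 4655 normalized counts in control, 6690, 7087 and 6726 in gag-pol, 5658, 6037 and 5556 in gag and 7053, 8403 and 6580 in NC. Each gag-pol library was above every control and gag library. These 3 genes were called whichever single library was left out. The number of calls ran from 9 to 30 in those fits and was 9 without gag replicate 2 or gag-pol replicate 3, 10 without NC replicate 2, 11 without control replicate 3. Dropping gag replicate 1 gave 12, and dropping NC replicate 1 gave 13. The share of all genes called in either direction was 24.7% with all 12 libraries. With 1 library left out it ran from 16.1% (without gag-pol replicate 3) to 23.2% (without gag-pol replicate 2).

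By rank of the construct means, NC was the highest of the 4 constructs for 69 of the 83 members (83.1%), while it was highest for 28% of all genes. Gag was the lowest for 46 (55.4%), against 24.9% of all genes, including 13 of 16 members of complex V and 8 of 10 of complex III. Both gag-pol and NC were above control and gag for 51 members (61.4%), against 27.6% of all genes. These ranks compare means of 3 libraries and say nothing of their spread.

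Libraries with the same replicate number shared much of the variation. Replicate numbers, taken as harvests, differed for 32 of 83 members (38.6%), and 52.8% of all genes tested were called. From replicate 1 to 3 the number of members called lower was 24 and higher 3, where 21% and 20.6% of all genes were called. The lower ones were 14 of 36 in complex I, 6 of 16 in complex V, 2 of 14 in complex IV and 1 each in complexes II and III. ATP5F1, subunit b of the peripheral stalk of ATP synthase, had the smallest p, at -0.41 ± 0.07 on the log2 scale (adjusted p = 5.86e-05, edgeR). The 3 higher ones were COX6A1 (0.26 ± 0.07) and the low-count isoforms COX6B2 and COX7A1, all of complex IV.

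**Figure D4:**
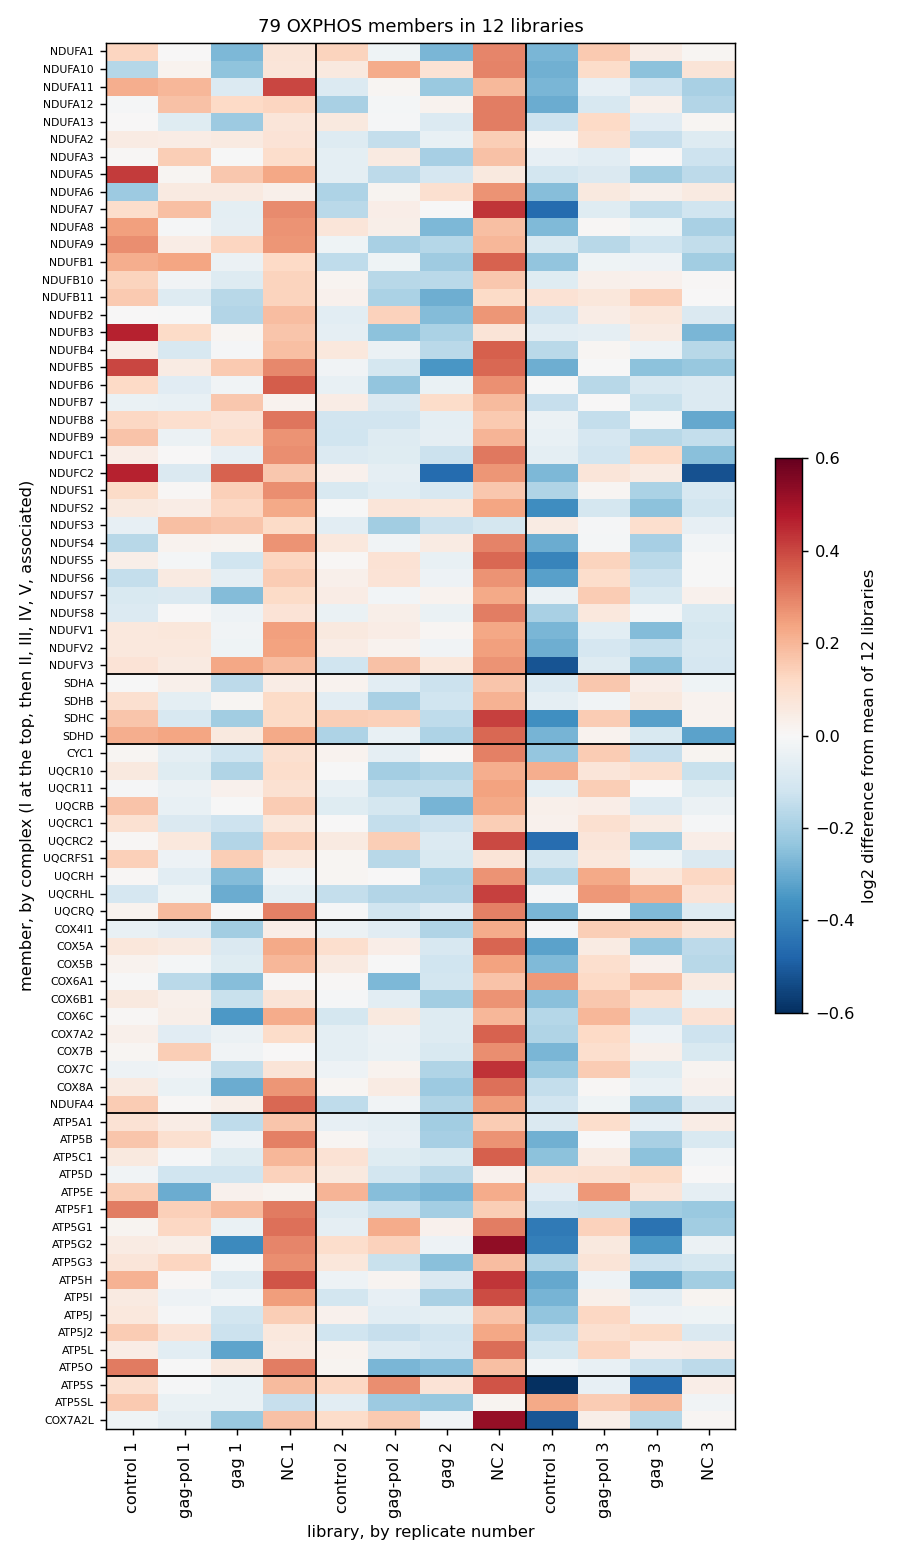
Log2 difference of each library from the mean of the 12 libraries for the 79 members with at least 100 counts in every library, grouped by replicate number (columns) and complex (rows), on normalized counts plus 1 and with color limits of 0.6. NC replicate 2 is red for most members, with a median difference over the 83 tested members of 0.26, and control replicate 3 is blue, with a median of -0.17.

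NC replicate 2 and control replicate 3 stood at opposite ends for most members. In NC replicate 2, 80 of 83 members were above their mean over the 12 libraries, and the medians of complexes I to V lay between 0.25 and 0.28. In control replicate 3, 13 of 83 were above it. NC replicate 1 had 78 members above and NC replicate 3 had 27, so the NC libraries did not act alike.

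Within replicate numbers, the median NC minus control difference over the members was 0.10, 0.26 and 0.08 in replicates 1, 2 and 3, with 63, 79 and 57 of 83 members higher. The gag-pol minus control difference changed sign, at -0.04, -0.03 and 0.23, and gag minus control did as well, at -0.14, -0.09 and 0.10. In both, the positive value came from replicate 3, where the control library was low. The NC minus control value of replicate 3 was taken against the same control library. NC replicate 3 was itself below the mean of the 12 libraries, with a median deviation of -0.07, against -0.17 for control replicate 3. NC minus gag was 0.24, 0.37 and 0.02, and gag-pol minus gag was 0.08, 0.06 and 0.09.

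**Figure D5:**
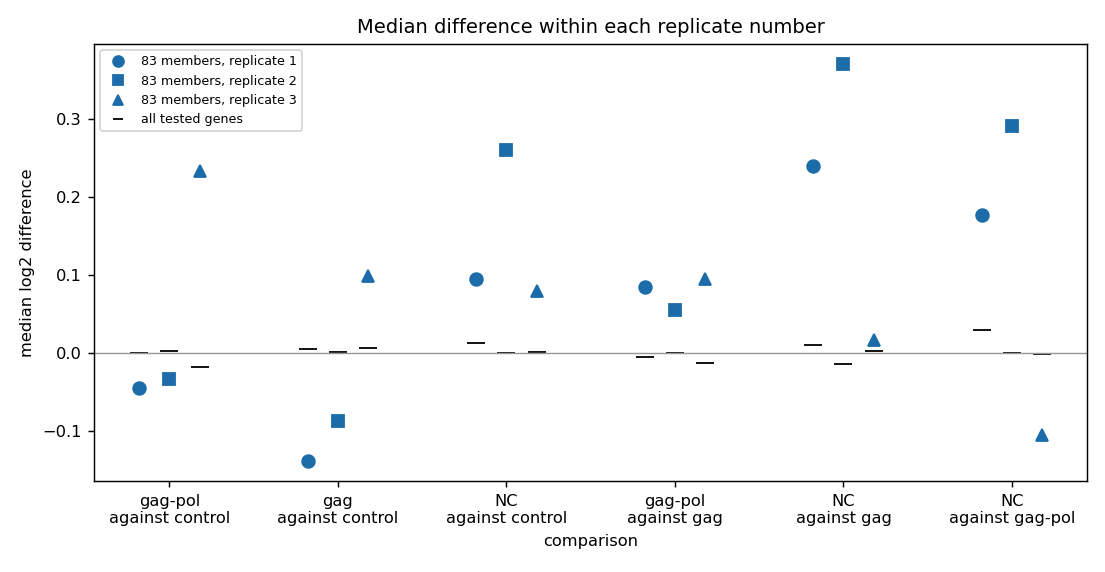
Median log2 difference over the 83 tested members within each replicate number, for the 6 comparisons between constructs, with dashes for the median of all tested genes, which lies between -0.02 and 0.03. NC is above control and above gag in all 3 replicates, while gag-pol and gag against control and NC against gag-pol change sign in replicate 3. The comparisons with control in replicate 3 all use control replicate 3, which was low for most members.

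Related gene lists were read in the same fits. Of 17 genes of the tricarboxylic acid cycle and pyruvate entry, 4 rose and 2 fell in NC against control, with a median of 0.15. IDH2, the mitochondrial NADP-dependent isocitrate dehydrogenase, changed most, with a log2 fold change of 0.64 ± 0.10 (adjusted p = 0.000881, edgeR). Of 48 assembly factors of the respiratory complexes, 4 rose and 0 fell in NC (median 0.09), with NDUFAF3, which acts in the assembly of complex I, changed most at 0.58 ± 0.11 (adjusted p = 0.00322, edgeR). In gag-pol NDUFAF3 rose and SURF1, an assembly factor of complex IV, fell. Of 10 carriers and ubiquinone synthesis genes, 2 fell in gag-pol (COQ6 and PDSS2) and 0 were called in gag or NC against control.

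Of 15 tested regulators of respiratory genes, 0 were called in NC, 3 rose in gag-pol (PPARGC1B, PPRC1 and MYC) and 2 rose in gag (NRF1 and PPRC1). NRF1 RNA had a log2 fold change against control of 0.40 ± 0.09 in gag (adjusted p = 0.0293, edgeR), 0.27 ± 0.09 in gag-pol (adjusted p = 0.0548, edgeR) and 0.04 ± 0.09 in NC (adjusted p = 0.819, edgeR). It was lower in NC than in gag, by 0.35 ± 0.09 on the log2 scale (adjusted p = 0.00995, edgeR). GABPA, TFAM (which packages mitochondrial DNA and helps start its transcription) and PPARGC1A were not called against control in any construct, with log2 fold changes between -0.10 and 0.06. CYCS, the electron carrier cytochrome c, had 0.26 ± 0.09 in NC (adjusted p = 0.0579, edgeR).

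The motifs were counted in called and other members. Of the 10 members called in NC against control, all had a promoter window and 4 held the NRF1 letters, as did 9 of 55 windows of tested members not called. The ETS letters were in 0 of the 10 and in 9 of the 55, and the YY1 letters in 3 and 8. For NC against gag the NRF1 letters were in 4 of 17 windows of called members and in 9 of 48 of the others. The ETS letters were in 4 of the 17 and 5 of the 48, and the YY1 letters in 1 and 10. These shares are descriptions of small numbers, and no test was made of them.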

How the data were processed

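The authors deposited raw counts of reads per gene for 12 libraries. Per the submitters' processing notes, reads were mapped to GRCh38.p13 with STAR 2.7.3, sorted with SAMtools 1.8 and counted with featureCounts. The annotation release, the strand setting and the treatment of reads with several matches are not given in the sources used here, so counts of gene copies (UQCRHL, ATP5L2), of the 30 tested members that overlap another tested gene (24 on the opposite strand) and of members with processed pseudogenes are uncertain. The same holds for NDUFC2, ATP5E and ATP5J2, whose readthrough symbols had a count of 0 in every library.

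Counts were analysed with edgeR 4.0.16 in R 4.3.3 (TMM factors, minimum count 10, minimum total count 15, quasi-likelihood test with robust estimation) in 1 fit of the 12 libraries, with a term for construct and a term for replicate number. Of the 86 members, 83 passed the filter and 3 (COX4I2, COX6A2 and COX7B2) did not. P-values were adjusted over all 17176 genes tested, at a threshold of 0.05. Replicate number was kept as a block because the study's model held the harvest date. Libraries of the same number deviated together: the correlations of 18 same-number pairs ran from 0.14 to 0.54 and those of 36 other pairs from -0.50 to 0.07. No dates are given for single libraries. The study calls the 3 libraries of a construct biological replicates, all of 1 cell line. Replicate libraries of a construct differed by more than counting error.

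Alternatives were DESeq2 1.42.0 (Wald test), RLE factors, PEG10 left out, no filter, no replicate number, removal of the GC and length trend, only the 6 libraries compared, and each library left out. Gene positions are from GENCODE release 44 on GRCh38, by symbol or older symbol. Figures were drawn with matplotlib 3.10.9 in Python 3.11.15.

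Members named in the text were, for each comparison, the 3 called members with the largest change or, with none called, the 3 smallest unadjusted p; the highest and lowest member of each complex by level per kb; the complex II subunits; and the isoform sets of complex IV and subunit c. Other members named were chosen after their values were seen. The members and gene lists were chosen with earlier results of these data known.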

Additional observations from a re-analysis of the deposited data

How the results depend on the processing

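Between constructs, a member was called lower in only 3 of the alternative fits, each without 1 library: ATP5SL (NC against control, without NC replicate 2), ATP5O (gag-pol against control, without gag-pol replicate 3) and COX7A1 (gag-pol and NC against the others, without gag-pol replicate 2). The named members kept their direction in all 358 refits. They were chosen by their change or p in these data and the refits reuse the same libraries, so a kept direction is no independent check. Of the refits, 244 were of called members, which lost the call in 51, and 114 were of members with no call. Without the replicate block, in which libraries are not matched by number, the calls fell to 0 in each of the 5 comparisons that had any, and the unadjusted p was under 0.05 for 10 members in NC against control and 16 in NC against gag. The share of all genes with such an unadjusted p in that fit is not given here, so these 2 counts cannot be set against it. Gag-pol against control gave 4 calls with DESeq2 and 0 with only its 6 libraries, against 2. The shares of all genes in these fits that were called were 8.80% and 6.84%, against 11.3%. Gag-pol against gag gave 6 without the filter, 6 after removal of the GC and length trend and 10 with only its 6 libraries, against 2. The shares over all genes were 6.67%, 8.34% and 15.9%, against 6.46%. NC against gag gave 13 with only its 6 libraries, against 21, where the share over all genes was 12.9%, against 16.9%. The cause was not tested. With each library left out in turn, the calls ran from 0 to 16 in NC against control, 1 to 32 in NC against gag, 0 to 4 in gag-pol against control, 0 to 6 in gag-pol against gag, 9 to 30 in gag-pol with NC against the other constructs, and 24 to 39 between replicate numbers, and stayed at 0 in gag against control and in NC against gag-pol. The share of all genes called ran from 2.10% to 13.5% in NC against control and from 5.36% to 20.4% in NC against gag. It ran from 4.22% to 13.9% in gag-pol against control and from 0.696% to 10.6% in gag-pol against gag. Between replicate numbers it ran from 42.8% to 53.4%. With 3 libraries a construct and 6 residual degrees of freedom, the smallest difference called in NC against gag was 0.21 on the log2 scale, so smaller ones may go undetected.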
